A study of Mus musculus with 13 samples.

Results

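Oligodendrocyte precursor cells (OPCs) taken from mouse brains at postnatal day 7 were compared with OPCs taken at postnatal day 6. The 5 OPC RNA libraries of the series, out of 13 samples, were chosen by the day in their labels: 3 are of day 7 (control replicate 1, Eed cKO replicates 1 and 2) and 2 are of day 6 (control replicate 2, Eed cKO replicate 3). No expression value entered that choice. All came from C57BL/6 brain, and Eed cKO means a conditional knockout of Eed, which belongs to the core of PRC2, the Polycomb complex that methylates lysine 27 of histone H3. The genotype field reads the same for control and knockout libraries, so the genotype was taken from the sample titles. The Cre driver, the deleted exons, the number of animals behind each library and the time in culture of the OPCs are not given in the sources used here. The growth medium was DMEM-Sato with PDGF and NT-3. The 4 other RNA libraries are immature oligodendrocytes (iOLs) from day 6 brains after 2 days in medium with T3 and without PDGF, 2 control and 2 Eed cKO. The 4 chromatin immunoprecipitation samples were not analysed here.

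OPCs are dividing glial cells that are kept as precursors by PDGF acting on its receptor Pdgfra, and that turn on myelin genes when they differentiate. In the mouse forebrain the first postnatal week is a time in which precursors spread, astrocytes multiply and the earliest oligodendrocytes begin to make myelin. Astrocytes share progenitors with the oligodendrocyte lineage and often remain as a minor population in OPC preparations, so both lineages matter for a comparison of brain age.

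The day is known only as a label, and libraries of one day may also share a preparation: the second header line of the table numbers the day 7 libraries OPC 1 to 3 and the day 6 libraries OPC 4 and 5. Age and preparation cannot be told apart. The library kit also depended on the RNA amount (a stranded poly(A) kit above 100 ng, a SMARTer kit below), and no source used here assigns a kit to a library. The labels do not say that replicates came from separate animals or cultures, so p-values measure the spread between these libraries.

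The 5 libraries held 17417529 to 19680398 counts over 13549 genes. Control replicate 1 stood apart from the rest in counts. Between control replicate 2 and Eed cKO replicates 1 and 2 the SD of log2 differences was 0.656 and 0.658. Control replicate 1 stood at 0.582 to 0.672 against the other 4 libraries, so by this measure it stood less apart. Its counts differed from those of the other 4 libraries by a chi-square of 99.1 to 106 per degree of freedom, against 77.6 and 79.6 between control replicate 2 and the Eed cKO libraries of day 7, 47.3 and 47.4 between the Eed cKO libraries of day 7 and day 6, 18.2 between the 2 day 6 libraries, which differ in genotype, and 7.67 between Eed cKO replicates 1 and 2. Lars2, a mitochondrial leucyl-tRNA synthetase gene, stood at 5380 CPM (counts scaled to the size of the library) in control replicate 1 and at 142 to 341 CPM in the other 4, and the haemoglobin gene Hbb-b1 stood at 2877 CPM against 562 to 1044 CPM. Xist, the RNA that coats the inactive X chromosome of female cells, stood at 0.868 CPM in Eed cKO replicate 1 and at 1023 to 2215 CPM in the other 4. Eed itself stood at 21.7 (control replicate 1), 13.3 and 11.8 CPM (Eed cKO replicates 1 and 2) on day 7 and at 16.8 (control) and 12.5 CPM (Eed cKO) on day 6. The 3 Eed cKO libraries lay below both controls, and Eed did not pass the test for a difference between days (log2 0.16 ± 0.16 SE, adjusted p = 0.611). These counts cover the whole gene and do not isolate the deleted part.

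OPC genes stood at high levels in the libraries of both days, beside genes of other cell types. The 25 OPC genes measured summed to 22175 to 26283 CPM, with Pdgfra at 3297 (control), 3935 and 4290 CPM (Eed cKO) on day 7 and at 4430 (control) and 3830 CPM (Eed cKO) on day 6. Astrocyte markers summed to 6060 to 17663 CPM in all 5. Whether this RNA came from astrocytes or from the OPCs was not tested. Myelin structural genes summed to 1359 to 7260 CPM, neuron markers to 1726 to 2575 CPM and red blood cell genes to 754 to 3171 CPM. The highest myelin and red blood cell sums were those of control replicate 1. Of the microglia markers 3 of 18 were in the table, of the endothelial markers 6 of 16 and of the ependymal markers 5 of 12, with sums of at most 36.4, 59.6 and 15.4 CPM.

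With genotype taken into account, day 7 OPCs had lower levels than day 6 OPCs of 18 of 21 astrocyte markers, 14 of 52 extracellular matrix genes and 8 of 30 immediate early genes, and higher levels of 10 of 24 myelin genes. In the edgeR quasi-likelihood fit of the 5 libraries, with day and genotype as terms, 799 of 13549 genes (5.9%) passed an adjusted p of 0.05. Of these, 238 (1.76% of all genes) were higher on day 7 and 561 (4.14%) were lower, a share of 70.2% lower. A difference above 1 on the log2 scale was found for 83 of the higher and 309 of the lower genes. The fit has 2 residual degrees of freedom: the difference between Eed cKO replicates 1 and 2, and the disagreement of the day difference between genotypes. Where control replicate 1, control replicate 2 or Eed cKO replicate 3 is left out, the day difference rests on 1 genotype. Only the first of these is then left, and more genes pass. List counts given below for such fits stand beside the totals of all genes in the last section. They describe how far the counts move and are not results about the lists.

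The sign of the day difference was compared between genotypes, which share no library: in controls it is replicate 1 against replicate 2, and in Eed cKO the mean of replicates 1 and 2 against replicate 3. All 799 called genes had the same sign in both, against 56.9% of all genes. The fit counts disagreement between genotypes as error, so this agreement is in part set by the test. In 767 of the 799 called genes (222 higher, 545 lower) the 3 day 7 libraries did not overlap with the 2 day 6 libraries, against 17.7% of all genes with every day 7 library above and 18.2% with every day 7 library below. The calls were made on these same libraries, so this separation too is in part set by the test.

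Genes were also chosen in one genotype alone, at a log2 difference of at least 1 and a mean of at least 5 CPM in the higher day, and read in the other. Of 468 genes chosen as lower on day 7 in controls, 424 (90.6%) were lower in Eed cKO too, with a median of −0.81. Of all genes at that mean CPM, 51% were lower in Eed cKO. Of 237 genes chosen as higher in controls, 202 (85.2%) were higher in Eed cKO, with a median of 0.36. Of all genes at that mean CPM, 49% were higher in Eed cKO. In the opposite direction, 247 of 253 genes chosen as lower in Eed cKO (97.6%) and 73 of 76 chosen as higher (96.1%) had the same sign in controls. Of all genes at that mean CPM, 48.2% were lower and 51.8% higher in controls. Over all 13549 genes the 2 differences had a Pearson r of 0.43 and a Spearman rho of 0.302, given as a description because genes of a library are not independent. The differences of controls were wider (SD 0.582 on the log2 scale) than those of Eed cKO (0.436).

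**Figure D1:**
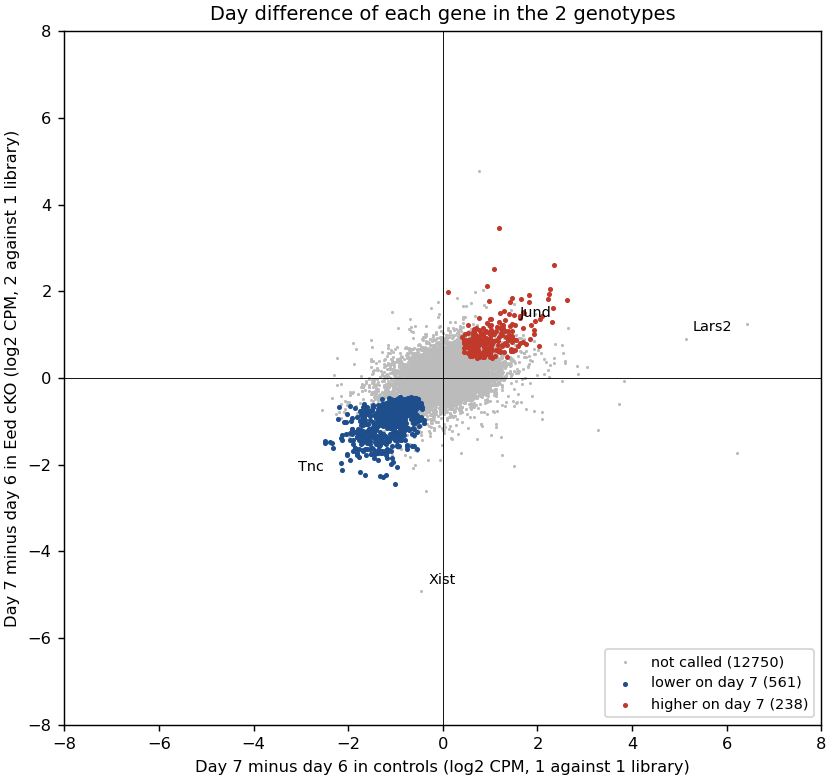
Each point is 1 of 13549 genes, with the day 7 minus day 6 difference in log2 CPM in controls on the horizontal axis and in Eed cKO on the vertical axis. The 238 genes called higher (red) and 561 called lower (blue) lie in the quadrants where both genotypes have one sign, while Lars2 lies far out on the control axis and Xist on the Eed cKO axis.

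Astrocyte markers had the largest share of called members among the 30 lists. Of 21 measured, 18 were lower on day 7 and none was higher, with a median log2 difference of −1.15 beside 0.03 over all genes tested. The median was −1.17 in controls and −1.18 in Eed cKO. Their summed level was 7290 (control), 6060 and 6259 CPM (Eed cKO) on day 7 and 17663 (control) and 13868 CPM (Eed cKO) on day 6, without overlap. In a bulk library, fewer cells of a type and less RNA per cell cannot be told apart.

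Among the channels and junction proteins of astrocytes, Gja1, which encodes the main astrocyte gap junction protein, stood at 169 (control), 122 and 140 CPM (Eed cKO) on day 7 and at 596 (control) and 445 CPM (Eed cKO) on day 6. All 3 day 7 values lay far below both day 6 values, a log2 difference of −1.79 ± 0.13 (SE, adjusted p = 0.002). Aqp4, the water channel of astrocyte endfeet, stood at 302, 218 and 255 CPM against 1181 and 636 CPM (libraries in the same order here and below: day 7 control 1, cKO 1, cKO 2, then day 6 control 2, cKO 3), a difference of −1.66 ± 0.18 (adjusted p = 0.0033). Mlc1, an endfoot membrane protein, stood at 283, 169 and 169 CPM against 732 and 558 CPM. Slc4a4, a sodium bicarbonate transporter, stood at 241, 276 and 287 CPM against 1003 and 690 CPM. Both groups of libraries were apart for each of these 4 genes.

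The glutamate transporter genes Slc1a3 and Slc1a2, with which astrocytes clear glutamate, were among the most abundant members. Slc1a3 stood at 876, 962 and 1039 CPM on day 7 against 2980 and 2696 CPM on day 6 (log2 −1.58 ± 0.17, adjusted p = 0.00354). Slc1a2 stood at 784, 1004 and 1076 CPM against 2167 and 2186 CPM (−1.24 ± 0.17, adjusted p = 0.00734). For both, control replicate 1 was the lowest of the 5 libraries. Glul, glutamine synthetase, followed at −1.07 ± 0.14.

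Gfap, the intermediate filament of astrocytes, differed by genotype as well as by day: 439 CPM in the control and 188 and 187 CPM in Eed cKO on day 7, against 991 CPM in the control and 500 CPM in Eed cKO on day 6. Within each genotype the day 7 level was lower, and the ranges of the 2 days did not overlap (log2 −1.32 ± 0.14, adjusted p = 0.0033). Aldh1l1, a folate enzyme used as a pan-astrocyte marker, showed −1.35 ± 0.13 and Acsbg1, an acyl-CoA synthetase, −1.54 ± 0.13. Agt, which encodes angiotensinogen, and Clu, clusterin, were lower on day 7 within each genotype, but their day ranges overlapped, since the day 7 control (146 CPM for Agt, 590 CPM for Clu) lay above the day 6 Eed cKO library (95.6 and 450 CPM). The 3 members that did not pass were Sox9, a transcription factor that OPCs share (−0.23 ± 0.12), F3 (−0.32 ± 0.14) and S100b (0.11 ± 0.19), which oligodendrocyte lineage cells also express.

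Without control replicate 1, where the day difference rests on Eed cKO alone, 20 of the 21 were lower. The count of lower members ran from 16 to 20 over the fits that left out 1 library each, and Clu and Ttyh1 lost their calls without Eed cKO replicate 1 (adjusted p = 0.0914 and 0.145) or replicate 2 (0.11 and 0.268). In the iOL libraries, also of day 6 brains, the astrocyte list summed to 10598 to 16918 CPM. Single members there went separate ways from OPCs: Gfap reached 3655 to 7938 CPM in iOLs, while Slc1a2 was at 351 to 566 CPM.

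**Figure D2:**
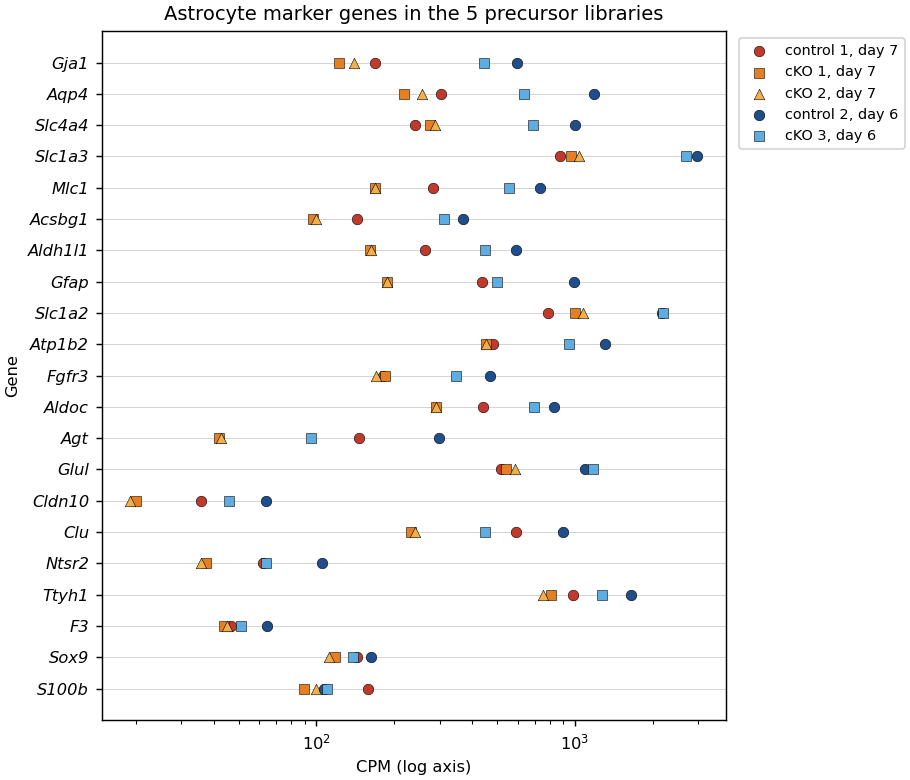
CPM on a log axis for the 21 astrocyte markers in the 5 OPC libraries, 1 point per library (red and orange, day 7; blue, day 6). The 3 day 7 points lie left of both day 6 points for 17 markers, such as Gja1, and the 2 days overlap for Agt, Clu, Sox9 and S100b.

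Matrix genes were lower on day 7 in part. Of 52 extracellular matrix genes 14 were lower, 1 was higher and 37 did not pass, with a median of −0.18. Without control replicate 1, control replicate 2 or Eed cKO replicate 3 there were 22, 21 and 22 lower and 10, 7 and 6 higher. Tnc, which encodes tenascin C, an adhesion-modulating glycoprotein of the developing brain, stood at 330, 354 and 334 CPM on day 7 and at 1473 and 1340 CPM on day 6. The values of one day were close together whatever the genotype, and the day difference was −2.05 ± 0.15 (adjusted p = 0.002). Ncan, the chondroitin sulfate proteoglycan neurocan, stood at 1593, 1561 and 1497 CPM against 3692 and 3168 CPM (−1.12 ± 0.17). Sparcl1, a secreted synapse-promoting protein of astrocytes, stood at 1646, 1177 and 1353 CPM against 4322 and 3171 CPM (−1.36 ± 0.17).

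The laminin genes Lamb2 (−1.57 ± 0.13), Lama2 (−1.42 ± 0.13) and Lama5 (−1.01 ± 0.17), the nidogen genes Nid1 and Nid2 and the type IV collagen gene Col4a5, which encode basement membrane proteins, were all lower. Nid1, a linker of laminin and collagen, stood at 95.4, 114 and 111 CPM on day 7 against 536 and 319 CPM on day 6. Nid1 and Col4a5 (14.6, 22.9 and 25.2 CPM against 77.1 and 66.5 CPM) had larger day differences in controls than in Eed cKO. Mmp14, a membrane-bound matrix protease, (−1.14 ± 0.12), Fn1, fibronectin (−0.95 ± 0.17), and Sparc (−0.75 ± 0.14) were lower as well. Col11a2, a fibrillar collagen, was the 1 member that was higher (0.59 ± 0.13, adjusted p = 0.0403), and it lost its call without Eed cKO replicate 1 (adjusted p = 0.23) or replicate 2 (0.158). Sparc did so too (0.109 and 0.125), as did Nid2 without replicate 2 (0.0846). Of the pericyte, fibroblast and meningeal markers, Fn1 and Pdgfrb, the PDGF receptor of pericytes (11.4, 10.4 and 11.5 CPM against 35.8 and 29.8 CPM, −1.53 ± 0.15), were lower and 19 of 21 did not pass; without either control 5 were higher and 8 lower, and without Eed cKO replicate 3 there were 3 and 3. Astrocytes make several of these matrix proteins, and 18 of 21 astrocyte markers were lower in the same libraries, with the sums given above; the part of that difference in the matrix genes, and in the signalling genes that follow, was not tested.

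A minority of the genes of developmental signals was called, beside 5.9% of all genes (1.76% higher, 4.14% lower). Of 16 BMP target genes 6 were lower and none was higher, with a median of −0.31; without control replicate 1, control replicate 2 or Eed cKO replicate 3 there were 7, 7 and 8 lower and 3, 2 and 2 higher. Id3, an inhibitor of bHLH factors that BMP induces, stood at 120, 64.4 and 56.2 CPM on day 7 and at 213 and 148 CPM on day 6 (log2 −1.10 ± 0.15, adjusted p = 0.00647), and its relatives Id2 (−0.96 ± 0.13) and Id1 (−0.84 ± 0.15) were lower too. The inhibitory Smad gene Smad6 stood at only 0.431 to 0.644 CPM on day 7 and at 1.95 and 2.01 CPM on day 6 (−1.85 ± 0.32), and the homeobox gene Msx2 and the bHLH gene Atoh8 completed the group. Atoh8 lost its call without Eed cKO replicate 2 (adjusted p = 0.0653). Bmp4, a BMP ligand that committed precursors make, had day 7 values of 26.4, 31.4 and 23.8 CPM, all above the 15.9 and 17.4 CPM of day 6, and missed the threshold in the edgeR fit (0.69 ± 0.17, adjusted p = 0.0535). Bmp4 passed with DESeq2 and without Eed cKO replicate 2, but not without Eed cKO replicate 1. Its log2 difference ran from 0.59 to 0.86 over the alternatives.

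In the Notch pathway the receptor and modifier genes Notch3 (64, 75.5 and 67.3 CPM against 251 and 172 CPM, log2 −1.58 ± 0.17), Lfng (−1.14 ± 0.15), Notch2 and Dtx4 were lower. The Notch target genes Hes5 (632, 568 and 508 CPM against 315 and 331 CPM, 0.83 ± 0.15, adjusted p = 0.0214) and Nrarp (0.59 ± 0.14, adjusted p = 0.0475) were higher. Hes5, a repressor of differentiation, and the receptors thus moved in opposite directions, and 16 of the 22 members did not pass. Nrarp lost its call without Eed cKO replicate 1 (adjusted p = 0.256) or replicate 2 (0.15) and with RLE factors (0.054), and Dtx4 without replicate 1 (0.124) or 2 (0.171). Without control replicate 1, control replicate 2 or Eed cKO replicate 3 there were 9, 9 and 5 higher and 4, 4 and 5 lower Notch pathway genes. Of 18 Wnt target genes 4 were lower (Tnfrsf19, Cd44, Apcdd1 and Wif1) and none was higher, and 7 were lower without Eed cKO replicate 3. Of 14 genes of the thyroid hormone response 5 were lower: Dio2, the deiodinase that activates thyroid hormone in glia (32.3, 36.8 and 44.5 CPM against 60.1 and 109 CPM, −1.20 ± 0.17), the potassium channel gene Kcnj10, Abcd2, Rxrg and Thrsp; 8 were lower and 1 higher without control replicate 1. Dio2 and Kcnj10 are also expressed by astrocytes. The call of Wif1 ended without Eed cKO replicate 1 (adjusted p = 0.0925) and without replicate 2 (0.0731).

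Of the myelin structural genes a part was higher on day 7. Of 24 measured, 10 were higher and none was lower, with a median of 1.01, and the median was 1.19 in controls and 0.74 in Eed cKO. The promoters of Mobp and Mag, 2 of these 10, are shown because factors of the Sox family, such as Sox10, drive myelin genes, and the core of their site, ACAAAG, was searched on both strands in the 250 bases before each start (RefSeq, GRCm38.p6; matches in capitals, written 5′ to 3′ on the gene's strand, so that CTTTGT is a match on the other strand). The Mobp window, chr9:120149492-120149741 (plus strand), held 6 matches, and 1 Mag window, chr7:30914864-30915113 (minus strand), held 1.
Mobp: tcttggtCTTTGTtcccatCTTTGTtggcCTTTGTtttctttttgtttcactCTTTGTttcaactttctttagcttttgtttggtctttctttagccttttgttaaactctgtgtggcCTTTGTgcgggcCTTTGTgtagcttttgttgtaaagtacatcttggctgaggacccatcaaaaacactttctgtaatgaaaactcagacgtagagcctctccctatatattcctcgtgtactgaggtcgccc
Mag: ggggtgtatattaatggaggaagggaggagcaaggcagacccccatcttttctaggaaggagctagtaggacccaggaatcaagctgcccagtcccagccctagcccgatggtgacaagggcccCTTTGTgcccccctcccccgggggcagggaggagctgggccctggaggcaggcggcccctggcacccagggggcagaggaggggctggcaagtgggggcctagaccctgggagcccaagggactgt
Of the 7 called myelin genes with a promoter entry, 3 held a match. In all, 18.6% of the 27025 genes of the RefSeq promoter table held one, 14.5% of the measured genes, 10.1% of the genes higher on day 7 and 17.8% of those lower. A match describes letters only and is not a measured site.

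Mbp, myelin basic protein, was the most abundant member at 3467 (control), 1119 and 1424 CPM (Eed cKO) on day 7 and 1120 (control) and 483 CPM (Eed cKO) on day 6. Its day 7 and day 6 ranges met, because the Eed cKO of day 7 reached only the control level of day 6, while within each genotype day 7 was higher (1.49 ± 0.19, adjusted p = 0.00566).

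Genes of compact myelin and its junctions were also higher. Mobp stood at 464, 118 and 184 CPM on day 7 against 142 and 51.4 CPM on day 6 (1.62 ± 0.21). Cldn11, the tight junction protein of myelin, stood at 131, 63.4 and 84.1 CPM against 34.3 and 35.9 CPM (1.41 ± 0.23). Of the late surface proteins, Mag stood at 271, 45.7 and 101 CPM against 57.7 and 19.1 CPM (2.07 ± 0.32) and Mog at 53.3, 6.94 and 13.8 CPM against 11.2 and 2.48 CPM (2.16 ± 0.30). Mobp, Mag and Mog overlapped between days in the same way as Mbp. Ermn, Hapln2 and Tspan2 were also higher, and Tspan2 lost its call without Eed cKO replicate 2 (adjusted p = 0.0904). Cnp, an early myelin enzyme, stood at 815, 302 and 370 CPM against 501 and 307 CPM and did not pass (0.37 ± 0.18, adjusted p = 0.277).

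Without control replicate 1 the count was 16 higher and 3 lower, with a median of 0.76, so that the median difference was smaller but of one sign in the Eed cKO libraries alone. Leaving out each library in turn gave 12 to 19 higher members. In a fit with day alone and no genotype term none of the 24 passed, and the median was 0.92. The iOL controls held 6798 and 6811 CPM of these genes and the iOL Eed cKO libraries 1971 and 2811 CPM, and the day 7 control OPCs held 7260 CPM, the highest of the 5 OPC sums.

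**Figure D3:**
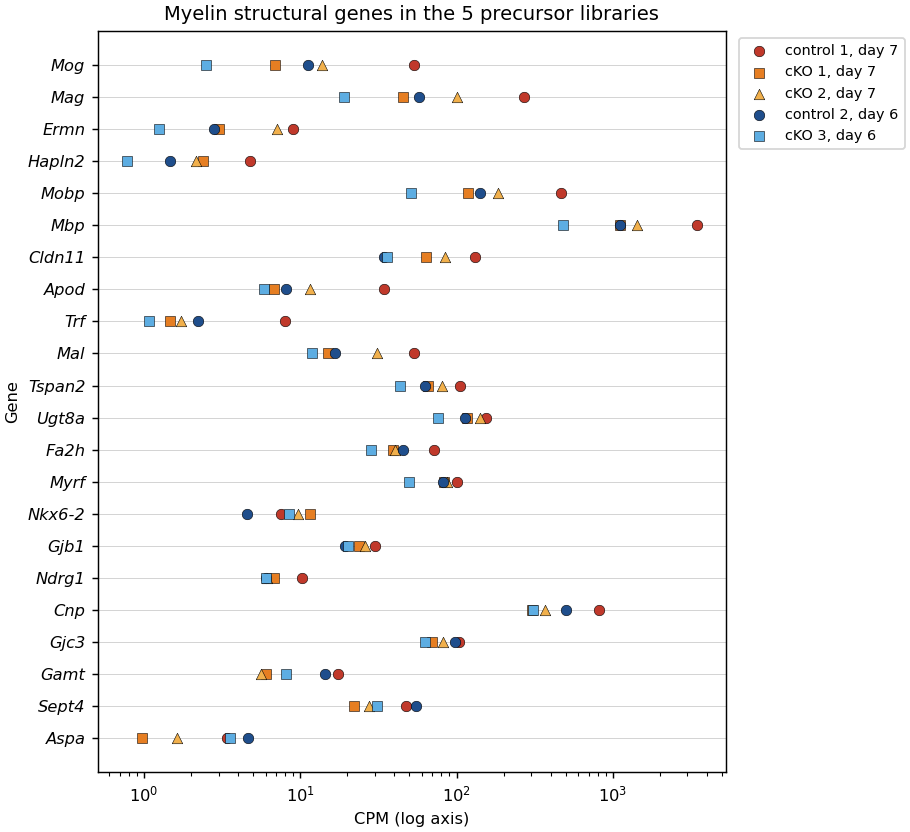
CPM on a log axis for 22 of the 24 myelin structural genes in the 5 OPC libraries, 1 point per library (red and orange, day 7; blue, day 6). Control replicate 1 of day 7 is rightmost for Mbp, Mag and Mog, and Eed cKO replicate 3 of day 6 is leftmost.

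Genes of the step between precursor and myelin-forming cell had fewer called members. Of 20 differentiation-committed genes 2 were higher and none lower, with a median of 0.29, beside 1.76% of all genes higher and 4.14% lower. Without control replicate 1, control replicate 2 or Eed cKO replicate 3 there were 11, 10 and 8 higher (and 2 lower in the last), and 1 was higher without Eed cKO replicate 1. Enpp6, a choline phosphodiesterase of newly forming oligodendrocytes, stood at 35.3, 18.3 and 25.6 CPM against 17.8 and 6.19 CPM (1.42 ± 0.25), and Bcas1 at 634, 401 and 406 CPM against 355 and 267 CPM (0.70 ± 0.14). Bcas1 lost its call without Eed cKO replicate 1 (adjusted p = 0.0941) or replicate 2 (0.144). Gpr17, a receptor of committed precursors, stood at 2922, 1866 and 1625 CPM against 3316 and 1866 CPM, with controls above Eed cKO on both days (−0.14 ± 0.17, adjusted p = 0.68).

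None of the 25 OPC genes passed in either direction in the edgeR fit of the 5 libraries. At an unadjusted p under 0.05 there were 5 higher and 1 lower, beside 1506 and 1557 of all 13549 genes. DESeq2 called 0 higher and 1 lower. Without control replicate 1, control replicate 2 or Eed cKO replicate 3, edgeR called 11, 7 and 8 higher and 1, 1 and 5 lower, and in the fits of all 9 libraries 1 higher, or 4 higher and 5 lower with the replicate block. Values were −0.13 ± 0.20 for Pdgfra, 0.16 ± 0.18 for the proteoglycan gene Cspg4 and 0.23 ± 0.14 for the lineage factor Sox10. Ptprz1, a receptor phosphatase, was the member with an unadjusted p under 0.05 on the lower side (2580, 4395 and 4722 CPM against 5926 and 5463 CPM, adjusted p = 0.163). It was singled out after its values were seen. Of all 13549 genes, 1.76% were called higher and 4.14% lower, a background for the count of the next list. Of 26 cholesterol synthesis genes, which supply myelin membrane, 2 were higher, among them Fdps, farnesyl diphosphate synthase (37.7, 32.4 and 34.6 CPM against 19.7 and 19 CPM, 0.87 ± 0.14), and 24 did not pass; without control replicate 1, control replicate 2 or Eed cKO replicate 3 there were 17, 15 and 9 higher and 2 lower in each.

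Immediate early genes, which respond quickly to growth factors and other stimuli, split in direction. Of 30 measured, 8 were lower on day 7, 2 were higher and 20 did not pass, with a median of −0.18. The count of lower members was 13, 13 and 15 without control replicate 1, control replicate 2 and Eed cKO replicate 3, and 4 and 5 without Eed cKO replicates 1 and 2. Without either control 7 were higher and the median was 0.01 and 0.0049. The promoters of Btg2 and Dusp1 are shown, since the cAMP response element that CREB binds, TGACGTCA (it reads alike on both strands), is a classic control element of early genes and stood in their windows of the same kind, chr1:134079156-134079405 and chr17:26508473-26508722 (both minus strand).
Btg2: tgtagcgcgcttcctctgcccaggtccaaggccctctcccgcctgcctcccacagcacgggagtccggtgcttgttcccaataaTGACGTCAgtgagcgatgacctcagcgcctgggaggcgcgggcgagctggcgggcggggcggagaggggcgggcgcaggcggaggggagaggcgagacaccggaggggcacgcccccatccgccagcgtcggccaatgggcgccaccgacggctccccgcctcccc
Dusp1: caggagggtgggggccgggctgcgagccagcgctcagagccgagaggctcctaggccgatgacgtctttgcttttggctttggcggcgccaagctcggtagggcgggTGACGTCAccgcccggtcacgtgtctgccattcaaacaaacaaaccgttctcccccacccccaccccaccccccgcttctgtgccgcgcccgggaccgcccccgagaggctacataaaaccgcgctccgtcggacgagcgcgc
These were 2 of the 6 lower genes with an entry. The element stood in 1.77% of all genes of the table, in 3.17% of the measured genes, in 3.72% of those higher and in 2.1% of those lower on day 7.

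Fos stood at 722, 814 and 982 CPM on day 7 and at 1597 and 1369 CPM on day 6, a difference of −0.84 ± 0.19 (adjusted p = 0.0452). Egr1, a zinc finger factor, stood at 379, 509 and 522 CPM against 862 and 830 CPM (−0.91 ± 0.17). Arc, best known from active synapses, stood at 15.1, 16.2 and 15.5 CPM against 30.7 and 32.9 CPM (−1.05 ± 0.13), and Zfp36, which promotes mRNA decay, at 55.7, 43.2 and 47.8 CPM against 102 and 92.1 CPM (−0.96 ± 0.13). No day 7 value of these 4 genes reached a day 6 value. Btg2 (−0.87 ± 0.12) and the ERK pathway inhibitors Dusp1, Dusp6 and Spry2 were lower as well. Fos lost its call without Eed cKO replicate 1 (adjusted p = 0.103) or replicate 2 (0.0679), as did Dusp6 (0.135 and 0.212) and Spry2 (0.221 and 0.226), and Dusp1 without replicate 1 (0.0617).

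The AP-1 member Jund went the opposite way, at 779, 626 and 634 CPM on day 7 against 283 and 265 CPM on day 6 (1.34 ± 0.15, adjusted p = 0.00362). Klf2, a zinc finger factor, stood at 40.7, 38.6 and 46.4 CPM against 17.4 and 19.3 CPM (1.18 ± 0.15). For both genes all 3 day 7 libraries lay above both day 6 libraries. In the iOL libraries Jund was at 33.2 to 57.2 CPM and Fos at 84.6 to 182 CPM, below every OPC library of either day.

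**Figure D4:**
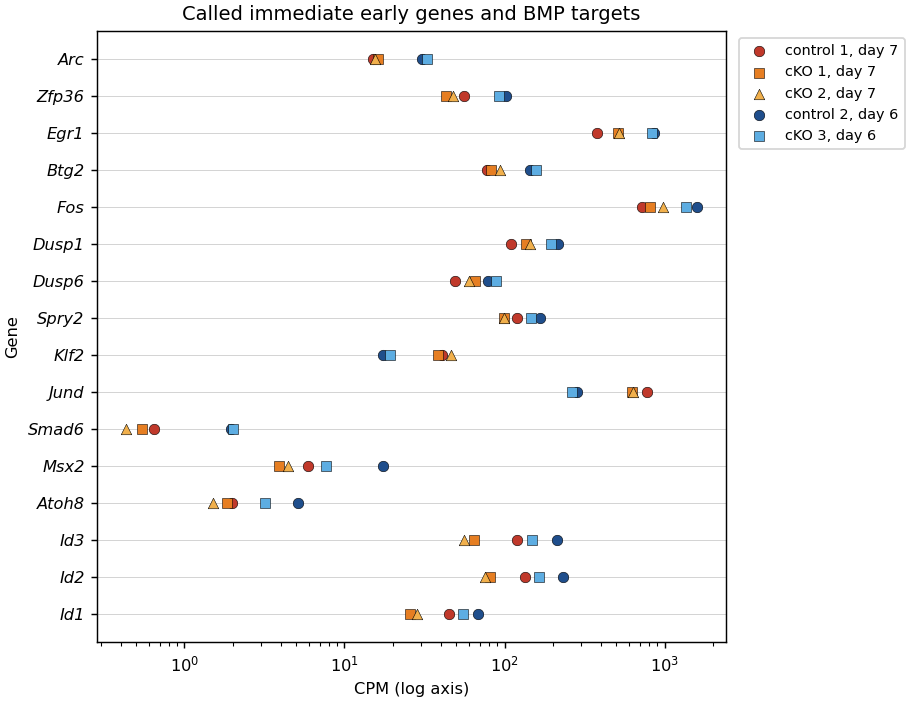
CPM on a log axis for the called immediate early genes (top) and called BMP target genes (bottom) in the 5 OPC libraries, 1 point per library (red and orange, day 7; blue, day 6). Day 7 lies left of day 6 for every gene drawn except Klf2 and Jund.

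Other groups had few called members, beside 5.9% of all genes called (1.76% higher, 4.14% lower). Single called members here describe those genes and are not results about their lists. Of 25 neuron markers 4 were higher and none lower, with a median of 0.38: Celf4, an RNA-binding protein gene (57.9, 54.2 and 50.6 CPM against 21.5 and 22.6 CPM, 1.30 ± 0.14), Elavl3 (219, 165 and 145 CPM against 99.3 and 83.6 CPM), Snap25 and Nefm. Leaving out 1 library gave 6 to 15 higher and 1 or 2 lower neuron markers. Of 43 cell cycle genes the proliferation marker Mki67 (251, 286 and 335 CPM against 126 and 161 CPM, 0.97 ± 0.14) and the kinetochore genes Cenpf and Cenpe (both 1.12) were higher, while the list's median was 0.04 and 40 members did not pass, among them Top2a at 0.21 ± 0.14; without control replicate 1, control replicate 2 or Eed cKO replicate 3 there were 4, 3 and 14 higher and 7, 5 and 2 lower. Of 27 heat shock and unfolded protein response genes Chac1 and Herpud1 were higher and the small heat shock gene Hspb1 was lower. When control replicate 1, control replicate 2 or 1 of the Eed cKO replicates was left out, in that order, 5, 3, 1, 1 and 7 of the list were higher and 8, 6, 3, 1 and 2 lower. Herpud1 lost its call without Eed cKO replicate 1 (adjusted p = 0.0795) or replicate 2 (0.0791). Chac1, a glutathione-degrading enzyme of the stress response, stood at 2.46, 6.78 and 4.95 CPM against 1.11 and 0.929 CPM and lost its call without Eed cKO replicate 3 (adjusted p = 0.066). Aldoc, an astrocyte glycolytic enzyme, and Egln3 were lower among 25 hypoxia and glycolysis genes (12 lower without either control, 5 without Eed cKO replicate 3), and Cd68, a lysosomal gene of microglia, was higher at 4.23 to 5.15 CPM against 1.75 and 2.21 CPM.

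Cytosolic ribosomal protein genes, oxidative phosphorylation genes, PRC2 subunits and clock genes had no called member in the edgeR fit of the 5 libraries. Their counts at an unadjusted p under 0.05 were 3 of 76, 2 of 73, 3 of 12 and 5 of 18, beside 3063 of all 13549 genes. DESeq2 called 2, 1, 1 and 3 in these groups. In the fit of all 9 libraries 2, 1, 1 and 1 were higher, with 1 oxidative phosphorylation gene and 2 clock genes lower. With the replicate block 75, 63, 2 and 1 were higher and 3 clock genes lower. Fits that left out 1 library called members of each group too. Ribosomal protein genes had a median of 0.84 in controls and −0.08 in Eed cKO, and oxidative phosphorylation genes 0.75 and −0.16. Without Eed cKO replicate 3, where the day difference is that of the controls, 76 of 76 and 64 of 73 were called higher, and without control replicate 1, 17 and 24 were called lower. The medians of both groups thus had opposite signs in the 2 genotypes. Interferon-stimulated genes (16), replication-dependent histones (8), small noncoding RNAs (4), red blood cell genes (3), endothelial markers (6) and ependymal markers (5) had no called member in that fit of the 5 libraries either. Their counts at an unadjusted p under 0.05 were 3, 1, 3, 2, 0 and 2, beside 3063 of all 13549 genes. DESeq2 called 1 ependymal marker and none of the others. The fit of all 9 libraries called 1 red blood cell gene higher and 1 ependymal marker lower. With the replicate block, 3 interferon-stimulated genes, 4 small noncoding RNAs and 3 red blood cell genes were higher. Fits that left out 1 library called members of each of these lists. Of the 12 Schwann cell and neural crest markers 1 was higher, beside 1.76% of all genes.

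**Figure D5:**
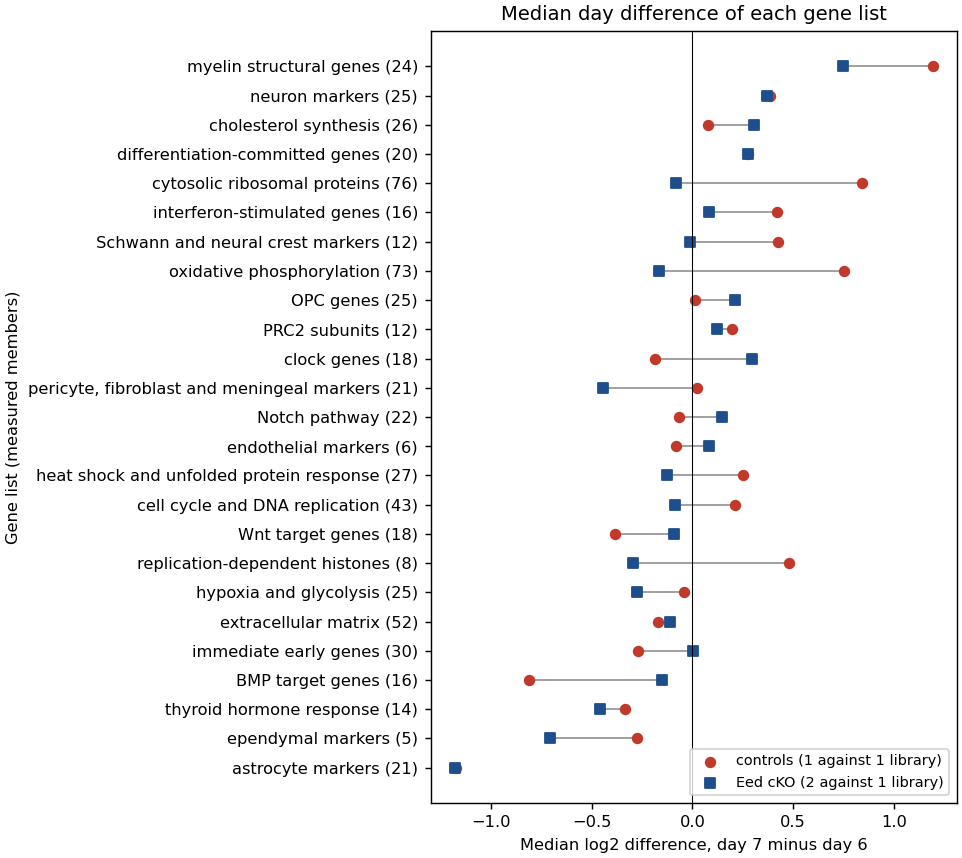
Median day 7 minus day 6 difference in log2 CPM of each gene list, in controls (red circles, 1 against 1 library) and in Eed cKO (blue squares, 2 against 1 library), with the number of measured members in brackets. Astrocyte markers lie near −1.2 and myelin genes above 0.7 in both genotypes, while ribosomal protein and oxidative phosphorylation genes lie above 0.7 in controls only.

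Beyond the lists, the genes with the largest differences and no overlap between days included the following. On the lower side Cybrd1, a ferric reductase, stood at 20.1, 15.7 and 18 CPM on day 7 against 88.8 and 73.9 CPM on day 6 (−2.14 ± 0.14, adjusted p = 0.002). Slco1c1, a carrier of thyroid hormone, stood at 33.2, 20.7 and 26.7 CPM against 104 and 111 CPM (−1.98 ± 0.18), and Cyp26b1, which degrades retinoic acid, at 38.3, 27.6 and 26.9 CPM against 150 and 101 CPM (−1.92 ± 0.12). The zinc transporter gene Slc39a12 (−1.79 ± 0.13) and the urea transporter gene Slc14a2 (−1.86 ± 0.32) were lower too. The planar polarity cadherin Celsr1 (−1.88 ± 0.17), the Eph receptor Ephb4 (−1.84 ± 0.18), the growth factor gene Hgf (−1.86 ± 0.28), the secreted protein genes Islr and Serpinf1, and Col4a6, the neighbour of Col4a5 in the type IV collagen family, completed the lower set.

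On the higher side Pou2f2, a POU domain transcription factor, stood at 29.1, 21.2 and 20.7 CPM against 6.69 and 7.69 CPM (1.73 ± 0.20, adjusted p = 0.00412). Tmem151a (1.62 ± 0.23), the kinase gene Cdk18 (1.59 ± 0.29), Tmem88b (1.44 ± 0.18) and 1700047M11Rik (1.44 ± 0.23) were higher. In the iOL libraries Cdk18 stood at 48.8 and 63.2 CPM in controls and 11.3 and 17.2 CPM in Eed cKO, and Tmem88b at 142 and 154 CPM against 29.4 and 57.1 CPM. The OPC libraries reached at most 11.3 CPM for Cdk18 and 24.1 CPM for Tmem88b, both in control replicate 1. Lor, a protein gene of the epidermal barrier, 4632427E13Rik, Ovgp1 and H2-M5, a class I histocompatibility gene, were higher at levels of 4.33 to 14.2 CPM on day 7.

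The day difference itself was tested for a difference between genotypes in a fit of all 9 RNA libraries with 3 residual degrees of freedom. The term passed for 2762 genes (20.4%), 1401 with a higher and 1361 with a lower day difference in Eed cKO. It passed for 64 of the 799 genes called for day. The fit for day counts disagreement between genotypes as error, so this number is in part set by the call. In controls the test of the term sets the single library control replicate 1 against control replicate 2, so a difference between genotypes and a library that stands apart cannot be told apart.

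Long and short genes differed by day in opposite senses in the 2 genotypes. In the 3381 genes with the shortest span on the genome (up to 10494 bp) the median difference was 0.31 in controls and −0.08 in Eed cKO, and in the 3381 with the longest span it was −0.20 and 0.11. The called lower genes had a median span of 32425 bp and the called higher genes of 22764 bp, beside 25263.5 bp over all. The part of gene length in the called genes was not tested.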

How the data were processed

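Of the RNA libraries, the table that the authors deposited holds raw counts per gene for 13549 genes. Per the submitters' processing notes the tools named are cutadapt 1.14, STAR 2.6.0 and featureCounts of Subread 1.6.2, with build mm10. No gene in the deposited table has a count below 1 in any library, and each reaches 10 in 4 or more libraries, so silent genes are not in it. A second header line (1 line) was skipped.

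Counts were tested with edgeR 4.0.16 (R 4.3.3, limma 3.58.1) by quasi-likelihood, with TMM factors and Benjamini-Hochberg adjustment over all genes, on the 5 OPC libraries with day and genotype as terms. Its filter at a count of 10 removed 0 genes. The dispersion shared by all genes was 0.0178 (coefficient of variation 13.4%). CPM use TMM factors of all 9 libraries, and log2 differences within a genotype use a prior count of 2. Log2 fold changes are day 7 minus day 6 with their SE. The test of a day difference that differs between genotypes used all 9 libraries. The scripts were tested on simulated data. DESeq2 1.42.0, RLE factors, other filters, other terms and leaving out each library were alternatives.

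Named genes are the 15 per direction with the largest called difference, one sign in both genotypes, no overlap between days and at least 5 CPM in the higher day, up to 4 members of each of 30 lists, and a fixed set of lineage, quality and stress genes; the other called members of the lists that the text describes are named as well. Some genes that meet this rule are not reported here. The comparison, its members and the lists were chosen with earlier results of these data known. Lists are described by counts and medians, with no test of the list. Promoters are RefSeq entries of GRCm38.p6, matched by symbol for 10589 of the 13549 genes; 99.8% of genes had a span in the matching gene table.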

Additional observations from a re-analysis of the deposited data

Results flagged for a closer look

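For 10 genes named here, 7 of them called for day, the day difference differed between genotypes by edgeR's day by genotype term over all 9 libraries (Eed cKO minus control, log2). Nid1 had a term of 0.99 (adjusted p = 0.0184): the day difference was −2.49 in controls and −1.51 in Eed cKO. Col4a5 had 0.93 (adjusted p = 0.00773), from −2.39 in controls and −1.47 in Eed cKO. Notch2 had 1.17 (adjusted p = 0.0128), from −1.85 and −0.69, with control replicate 1 at 29.4 CPM, the lowest of the 5 libraries, and the Eed cKO libraries of day 7 at 89.8 and 86 CPM. Slc14a2 had −1.48 (adjusted p = 0.0252), from −1.01 in controls and −2.45 in Eed cKO. Slc4a4 had 0.76 (adjusted p = 0.00973), from −2.05 and −1.30, Egr1 0.50 (0.0483), from −1.18 and −0.69, and Dusp1 0.50 (0.0404), from −0.97 and −0.48. These 7 were lower on day 7 in both genotypes. Of the genes not called for day, Ptprz1 had 0.94 (0.00601), from −1.20 and −0.27, Lars2 −4.17 (0.00382), from 5.13 and 0.91, and Hbb-b1 −1.999 (0.00373), from 2.36 and 0.35. The size of each difference in controls rests on control replicate 1, a library that stands apart.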

How the results depend on the processing

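The counts of genes depended on how the spread was estimated. Against 238 higher, 561 lower and 799 with one sign in both genotypes, a fit of all 9 libraries gave 793, 1049 and 1842, and a fit with day alone and no genotype term gave 6, 91 and 97. DESeq2 gave 396 higher, 709 lower and 1104 with one sign. Leaving out each library in turn gave 198 to 2538 higher, 497 to 2701 lower and 693 to 3304 with one sign: 2500 higher and 2124 lower without control replicate 1, 2106 and 1909 without control replicate 2, 2538 and 2701 without Eed cKO replicate 3. In those 3 fits the only spread left is that between Eed cKO replicates 1 and 2. Without Eed cKO replicate 1 or 2, 226 and 198 were higher. The share of lower calls was 70.2% in the reported fit, 56.9% with all 9 libraries, 45.9% without control replicate 1 and 93.8% with day alone. RLE factors and other filters kept each count within 1.5 times. The genotype term of the day difference gave 2762 genes, 3911 in the 5 OPC libraries alone, 2808 with RLE factors and 1705 with DESeq2. With day alone, 7 astrocyte markers, 6 matrix genes and 1 immediate early gene were lower, and no myelin gene was called.

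Replicate numbers do not pair the OPC samples by day: number 2 is of day 6 in control and of day 7 in Eed cKO. Deviations of control and Eed cKO libraries with one number had correlations of 0.313 and −0.352. The deviations of 2 controls mirror each other, and number 1 is of day 7 in both genotypes. These correlations therefore cannot test pairing by number. With the replicate block in the fit of all 9 libraries, 1816 genes were higher, 1950 lower and 2396 had one sign in both genotypes; 639 of the 799 calls were made there too. All 799 kept their direction in each alternative that tested them. The fits without control replicate 1, control replicate 2 or Eed cKO replicate 3 rest on 1 genotype. There the direction was set beforehand, since all 799 have one sign in both genotypes. Of the 799, 582 and 560 were also called without Eed cKO replicate 1 and 2. Among genes that were not called, and with 1 library left out, Cspg4 ran from −0.0861 (without Eed cKO replicate 3) to 0.34, Pdgfra from −0.44 to 0.10 (without control replicate 1, and 0.0961 without control replicate 2), Eed from −0.0069 (without control replicate 2) to 0.35, and Xist from −4.89 to 0.0985 (without Eed cKO replicate 1). S100b ran from −0.23 (without control replicate 2, and −0.22 without control replicate 1) to 0.55 (without Eed cKO replicate 3). Over 123 named or called list genes and all alternatives, 1310 values kept side and direction, 124 fell short of the threshold, 35 newly passed it and 7 turned; among those that fell short, Rxrg and Fn1 did so with all 9 libraries and H2-M5, Zfp36, Hspb1, Col5a2, Chac1, Rxrg, Pdgfrb, Fn1, Clu, Sparc, Nid2, Col11a2 and Thrsp with the block.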
